A study of Mus musculus with 6 samples.

Results

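The genes described here encode the nuclear subunits of respiratory complexes III and IV, of cytochrome c and of the mitochondrial ATP synthase. They were taken by name from a deposited gene table of CT26.WT, a mouse line grown from a colon carcinoma: gene symbols that begin with Cox4 to Cox8 and a letter, with Uqcr or with Atp5, together with Cyc1 and Cycs, where the row has a protein-coding transcript and is no named pseudogene. The rule used no measured value. It found 43 of 25407 rows: 9 of complex III, 15 of complex IV, 18 of the ATP synthase and Cycs, the somatic cytochrome c gene. Another 10 rows with a matching start of the name were left out, all but Cox6c2 bearing a pseudogene suffix. Of these, Cox5b-ps was the highest, at 12.1 ± 0.721 (SD, n = 3) FPKM in control and 14.3 ± 1.66 in treated libraries.

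Complex III passes electrons from ubiquinol to cytochrome c, a small soluble haem protein, and complex IV, cytochrome c oxidase, passes them on to oxygen. Both pump protons out of the mitochondrial matrix, and the ATP synthase lets protons back through its rotating membrane ring to make ATP in its F1 head. Each complex mixes a catalytic core with many small subunits that stabilise or regulate it, and a few core proteins are encoded by mitochondrial DNA rather than in the nucleus. Tumour cells vary in how much of their ATP comes from this route. Copper is a cofactor of complex IV, and hydrogen sulfide is known to inhibit it.

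The study compared 3 control libraries with 3 libraries of cells given Cu2O@AuMn@HA, particles whose name lists copper oxide, gold and manganese, plus NaHS (a hydrogen sulfide donor) plus NIR (near-infrared light). The sources used here do not give doses, times or what the control cells received, and the agents were not separated in these libraries, so their shares in a difference cannot be told apart. Values are FPKM, fragments scaled to gene length and library size, and estimated counts, whose totals ran from 71409968 to 81821380 over the control libraries and from 62328377 to 70323604 over the treated ones. The genes studied here took 1.154% to 1.23% of summed FPKM in every library. Of estimated counts they took 1.04% to 1.06% in control and 0.953% to 1.01% in treated libraries, lower in every treated library. Mitochondrial chromosome genes took 1.25% to 1.86% of a control library's estimated counts and 1.96% to 3.45% of a treated library's.

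As a check of the line, 3 of 8 epithelial markers, the keratins Krt8, Krt18 and Krt20, averaged at least 1 FPKM. Krt18 stood at 58.6 to 69.04 FPKM in control and 152 to 172 in treated libraries, and Krt20 at 87.1 to 93.1 and 53.4 to 61.8. The list of 8 epithelial markers summed to 153 to 169 FPKM in control and 224 to 238 in treated libraries. The epithelial adhesion genes Epcam and Cdh1 were listed at 0 in every control library and at most 0.0609 FPKM in treated libraries. Krt19, Cdx2 and Vil1 were also low, reaching at most 0.717, 0.459 and 0.135 FPKM in any library. Of 6 leukocyte markers, Cd68 passed 1 FPKM, and the list summed to 27.4 to 28.3 FPKM in control and 55.0 to 64.6 in treated libraries, with Ptprc at or near 0. Of 4 fibroblast markers, Col1a1 and Col1a2 passed 1 FPKM, and the list summed to 92.0 to 100.3 FPKM in control and 59.3 to 67.2 in treated libraries. Endothelial and muscle markers stayed under 1 FPKM. The part of these marker differences in the results below was not tested.

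Transcripts of the 3 complexes did not move as a block. In treated cells the small complex IV subunit genes Cox7a1, Cox7c and Cox7b, the complex III genes Uqcr10 and Uqcrh, and the ATP synthase genes Atp5f1e, Atp5pf and Atp5mj were higher, with log2 fold changes of 0.77 to 1.69. The beta and alpha subunit genes of the ATP synthase, Atp5f1b and Atp5f1a, the complex III genes Uqcrc1, Cyc1 and Uqcrq, and Cycs were lower, with log2 fold changes of −0.69 to −0.36. Of the 42 genes that passed the filter on low counts, 17 rose, 9 fell and 16 did not pass the test (edgeR's quasi-likelihood test, Benjamini-Hochberg adjustment over all 16212 rows tested, threshold 0.05). Over all rows tested 23% rose and 23.5% fell, so the members' shares were 40.5% and 21.4%. The median log2 fold change was 0.13 over these genes and 0.06 over all rows tested. In RNA pooled from a culture, a change in the share of cells and a change in RNA per cell cannot be told apart. The balance of directions over all rows depended on scaling: 49.5% of calls were higher with TMM scaling, 60.8% with upper quartile scaling, which raised the median of all rows by 0.12, and 55.5% with library totals alone. With upper quartile scaling 22 of the genes rose and 8 fell.

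**Figure D1:**
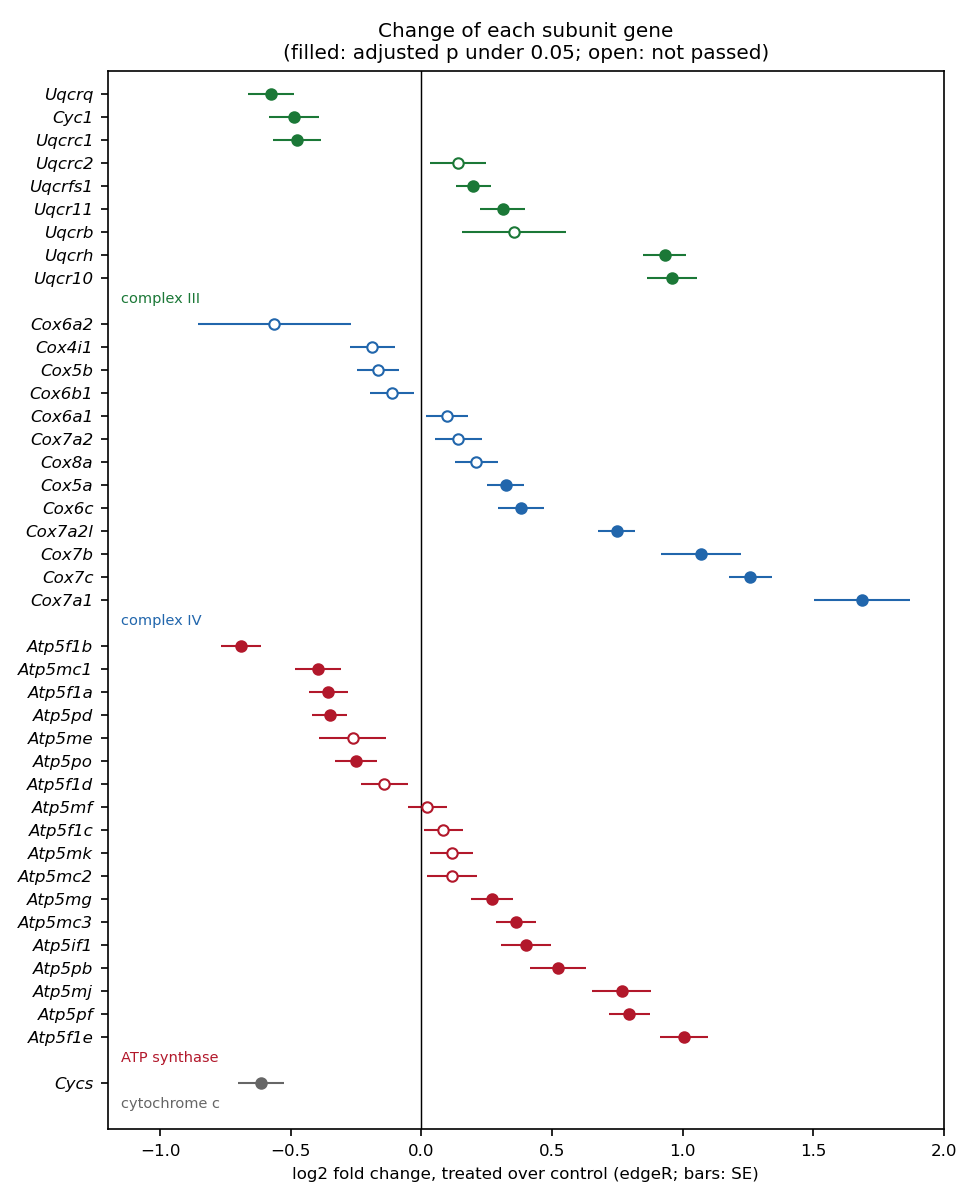
Log2 fold change (treated over control, edgeR) with its SE for each gene, sorted within each complex, whose name stands under its genes. Filled points passed the test. Cox4i2, at the counting floor, and Cox6b2, not tested, are not drawn. Complex IV has filled points to the right of 0 only, while complex III and the ATP synthase have them on both sides.

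**Figure D2:**
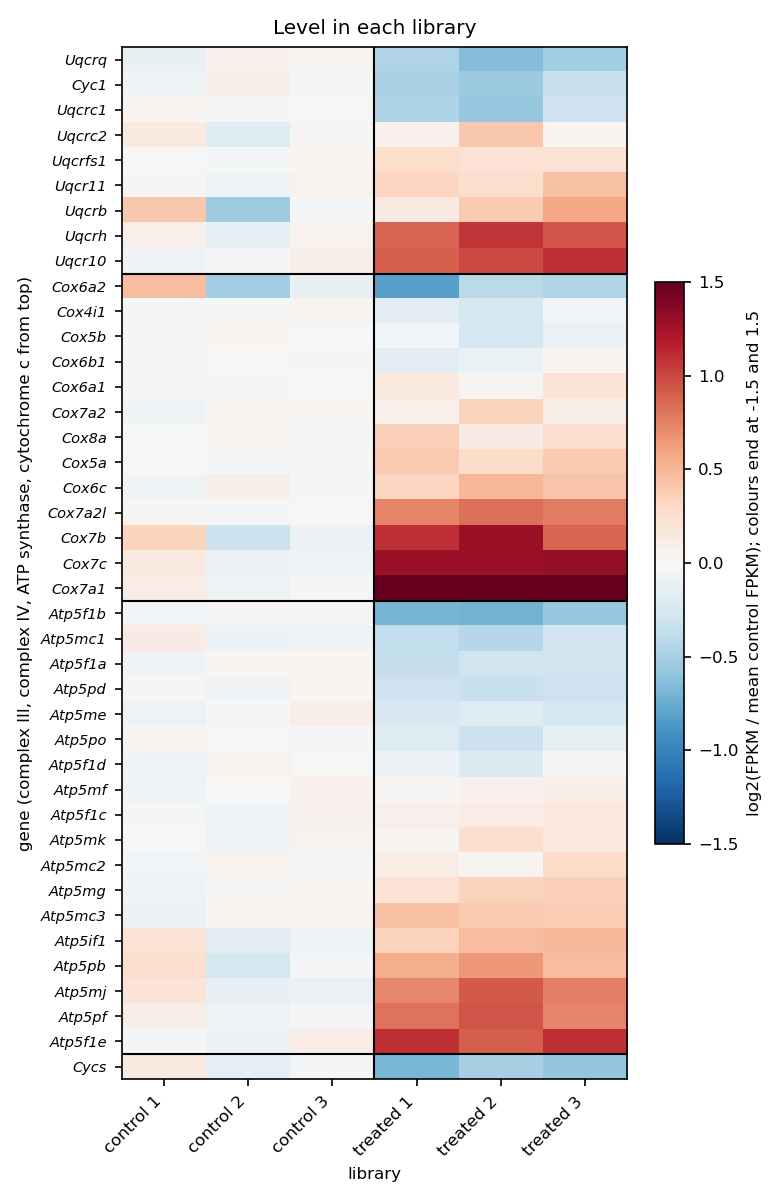
FPKM of each gene in each library relative to the control mean, on a log2 scale, with red above and blue below the control mean. Rows are genes in the order of the plot of fold changes and columns are the 3 control and 3 treated libraries. Uqcrb, Cox7b and Cox6a2 vary most among the control libraries.

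The stretch before the start site is shown for 4 genes that went different ways, all of which hold an NRF1 or ETS motif. NRF1 and the ETS factor GABP are known activators of many respiratory chain genes. Sequences come from RefSeq (GRCm38.p6), read in the direction of the gene and ending at the base before its start site, with matches to either motif in capitals. Atp5pd fell, Atp5f1e and Uqcrh rose, and Cox6a1 did not pass. All lie on the minus strand: Atp5pd at chr11:115419920-115420169, Atp5f1e at chr2:174464102-174464351, Uqcrh at chr4:116075071-116075320 and Cox6a1 at chr5:115348959-115349208.
Atp5pd: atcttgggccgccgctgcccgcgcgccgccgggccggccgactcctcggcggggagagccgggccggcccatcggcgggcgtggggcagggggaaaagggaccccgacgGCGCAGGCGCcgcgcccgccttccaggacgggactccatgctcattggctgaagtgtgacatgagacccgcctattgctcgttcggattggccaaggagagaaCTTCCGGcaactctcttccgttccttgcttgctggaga
Atp5f1e: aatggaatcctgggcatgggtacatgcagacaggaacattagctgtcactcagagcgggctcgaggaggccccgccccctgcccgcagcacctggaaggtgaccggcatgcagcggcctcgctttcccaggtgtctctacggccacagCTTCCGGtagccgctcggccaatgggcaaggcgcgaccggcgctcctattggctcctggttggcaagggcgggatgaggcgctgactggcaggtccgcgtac
Uqcrh: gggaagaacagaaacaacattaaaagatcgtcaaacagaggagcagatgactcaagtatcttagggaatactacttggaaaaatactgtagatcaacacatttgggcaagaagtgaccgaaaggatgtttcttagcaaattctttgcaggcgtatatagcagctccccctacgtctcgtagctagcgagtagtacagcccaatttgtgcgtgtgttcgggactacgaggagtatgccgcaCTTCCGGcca
Cox6a1: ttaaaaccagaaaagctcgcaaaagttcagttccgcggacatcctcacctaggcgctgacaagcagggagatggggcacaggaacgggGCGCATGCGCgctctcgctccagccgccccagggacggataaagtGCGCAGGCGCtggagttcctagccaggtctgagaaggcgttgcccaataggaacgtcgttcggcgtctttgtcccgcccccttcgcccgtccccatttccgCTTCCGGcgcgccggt
The windows searched run from 250 bases before to 50 after the start site. The motifs, searched on both strands, were GCGCA, any base and GCGC for NRF1, CCGGAAG for ETS factors and AAGATGGC for YY1, and none of these contains another. Atp5pd holds the NRF1 letters 141 bases and the ETS letters 38 bases before its start, Cox6a1 the NRF1 letters at 162 and 117 bases and the ETS letters at 16, and Atp5f1e and Uqcrh the ETS letters at 102 and 10 bases. Of the 43 genes, 31 were matched to a window. Among them 9 (29.0%) held the NRF1 letters, against 5.19% of 27025 genes with a window, 10 (32.3%) the ETS letters, against 9.93%, and 2 (6.45%) the YY1 letters, against 3.19%. The NRF1 letters stood in 2 of 14 raised, 3 of 6 lowered and 4 of 10 genes that did not pass, and the ETS letters in 5, 1 and 4 of the same genes. Cox6b2, which was not tested, held neither. The windows of Cox7a1, Cox7c, Cox7b, Cox7a2l, Uqcr10, Atp5f1b and Cycs, which changed and are not shown, held no exact match to either as well. Only exact matches were counted. The Cycs window holds tcgcatgcgc, which differs from the NRF1 letters in its first base alone. Near matches were not searched in the other windows, so a gene without a match may still hold a related site. Letters in a window are a description and say nothing of binding.

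In complex III, 4 of 9 genes rose (44.4%) and 3 fell (33.3%), against 23% and 23.5% of all rows tested. The median log2 fold change was 0.20. The core protein gene Uqcrc1 (chromosome 9, 108765701 to 108778691, plus strand, build not given) stood at 118, 113 and 114 FPKM in control libraries 1 to 3 and at 83.4, 77.4 and 93.1 in treated libraries 1 to 3. The groups did not overlap, and its log2 fold change was −0.48 ± 0.09 (SE, edgeR adjusted p = 0.00207). Its partner Uqcrc2 stood at 50.1, 40.0 and 45.9 FPKM in control and 47.3, 59.8 and 46.3 in treated libraries, where the groups overlapped (log2 fold change 0.14, adjusted p = 0.318). Among the electron carriers, Cyc1, the cytochrome c1 that hands electrons to cytochrome c, read 106, 117 and 108 FPKM in control and 78.9, 75.2 and 87.3 in treated libraries. All treated values of Cyc1 lay under all control values, and its log2 fold change was −0.49 ± 0.10 (edgeR adjusted p = 0.00221). The Rieske iron-sulfur protein gene Uqcrfs1 went the other way, from 55.9, 55.5 and 57.5 FPKM to 67.7, 65.7 and 65.5 (log2 fold change 0.20 ± 0.07, edgeR adjusted p = 0.0305). That call was lost in 7 of 20 alternatives, among them without control 1, 2 or 3 or treated 1, at log2 fold changes of 0.16 to 0.19, and with a correction for transcript length (0.16, adjusted p = 0.104).

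The small subunits of complex III, which surround the core, gave the largest changes in both directions. Uqcr10 (chromosome 11, 4651973 to 4654342, minus strand) read 46.9, 47.6 and 51.6 FPKM in control and 90.4, 96.4 and 104 in treated libraries, higher in every treated library, its log2 fold change being 0.96 ± 0.09 (edgeR adjusted p = 3.4e-05). Uqcrh, the acidic hinge protein beside cytochrome c1 (chromosome 4, 115924162 to 115932231, minus strand), read 72.8, 62.6 and 71.2 FPKM in control and 126, 145 and 132 in treated libraries (log2 fold change 0.93 ± 0.08, edgeR adjusted p = 1.8e-05). The row of Uqcrh overlaps a processed pseudogene on the opposite strand, Gm12854, listed at 54.5 FPKM in control and 36.3 in treated libraries. The sources used here do not say whether counting used the strand, so the split between Uqcrh and Gm12854 is uncertain. Uqcrq, from the same group of small proteins, fell from 60.3, 68.1 and 67.4 FPKM to 47.6, 41.7 and 45.5, again without overlap (log2 fold change −0.57 ± 0.09, edgeR adjusted p = 0.00052). Uqcr11 rose from 65.5 ± 2.99 (SD, n = 3) to 83.2 ± 5.22 FPKM (log2 fold change 0.31), a call lost without control 1, 2 or 3 (log2 fold changes of 0.29, 0.28 and 0.31, adjusted p of 0.0514 to 0.0564). With the length correction the Uqcr11 value was 0.0044 (adjusted p = 0.970). Uqcrb was spread widely, at 52.5, 27.5 and 39.3 FPKM in control and 43.4, 52.3 and 59.5 in treated libraries. It did not pass (log2 fold change 0.35, adjusted p = 0.175), and passed without control 1, at 0.57 (edgeR adjusted p = 0.0343). Within each library the ratio of Uqcr10 to Uqcrc1 FPKM was 0.398, 0.421 and 0.452 in control and 1.08, 1.24 and 1.12 in treated cells.

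In complex IV, 6 of 14 genes tested rose (42.9%) and none fell, against 23% and 23.5% of all rows tested. The median log2 fold change of these complex IV genes was 0.18. The count of lowered genes was also 0 at an unadjusted p under 0.05 in edgeR and at the adjusted threshold in DESeq2 and limma. Cox4i1, Cox5b, Cox6b1 and Cox6a2 had log2 fold changes below 0 (Cox6b1 at 0.012 with upper quartile scaling). All treated values of Cox4i1 and of Cox5b lay under all control values, while the groups overlapped for Cox6b1 and Cox6a2. Cox7c (chromosome 13, 86192935 to 86195023, minus strand), a small membrane subunit, read 30.7, 26.2 and 26.4 FPKM in control and 67.7, 67.4 and 69.5 in treated libraries. Its treated libraries differed little among themselves, and its log2 fold change was 1.26 ± 0.08 (edgeR adjusted p = 3.8e-06). Cox7b, another small membrane subunit, read 21.7, 13.8 and 16.1 FPKM in control and 36.8, 42.3 and 31.6 in treated libraries (log2 fold change 1.07 ± 0.15, edgeR adjusted p = 0.00035). Cox7b is among the genes most affected by a correction for GC content, which brought its log2 fold change to 0.58 (edgeR adjusted p = 0.00065). Cox6c rose from 28.2, 31.4 and 29.1 FPKM to 36.9, 41.7 and 39.9 (log2 fold change 0.38 ± 0.09, edgeR adjusted p = 0.0056), and Cox5a, which binds the matrix side of the enzyme, from 40.4, 40.2 and 41.0 to 53.4, 49.1 and 53.4 (log2 fold change 0.32 ± 0.07, edgeR adjusted p = 0.0045). Both calls were lost with the length correction, at log2 fold changes of 0.17 and 0.080.

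The 4 complex IV transcripts with the highest control FPKM, Cox6a1, Cox4i1, Cox6b1 and Cox8a, did not pass the test, and Cox7a2l, next in order, rose. Cox6a1, the widely expressed form of subunit 6a, read 488, 499 and 496 FPKM in control and 547, 509 and 569.8 in treated libraries (log2 fold change 0.10, adjusted p = 0.356), and passed in 5 of 20 alternatives, among them with the GC correction, at 0.22 (edgeR adjusted p = 0.00228). Cox4i1, the main regulatory subunit and the site of allosteric ATP inhibition, read 429, 430.2 and 448 FPKM in control and 390.4, 362 and 423 in treated libraries. Its log2 fold change was −0.19 (adjusted p = 0.103), and it passed without treated 3, at −0.27 (edgeR adjusted p = 0.0118). Cox6b1, which lies on the intermembrane side, averaged 334 ± 4.12 FPKM in control and 316 ± 21.1 in treated libraries (n = 3 each, log2 fold change −0.11, adjusted p = 0.312), and passed without treated 3, at −0.19 (edgeR adjusted p = 0.0440). Cox8a read 272, 279 and 266 FPKM in control and 348, 296 and 325 in treated libraries without overlap. It missed the threshold (log2 fold change 0.21, adjusted p = 0.0611) but passed in 11 of 20 alternatives, among them both limma fits, library totals, without treated 2, at 0.26 (edgeR adjusted p = 0.0192), and the GC correction, at 0.34 (edgeR adjusted p = 0.00048). With the length correction Cox8a stood at −0.063 (adjusted p = 0.612). The less abundant Cox5b averaged 67.2 ± 1.23 and 61.3 ± 4.68 FPKM (log2 fold change −0.17, adjusted p = 0.115).

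Several complex IV subunits have a second gene that is used mainly in heart and skeletal muscle, lung or testis. Cox7a1, the heart and muscle form of subunit 7a (chromosome 7, 29883569 to 29885503, plus strand), read 3.10, 2.73 and 2.82 FPKM in control and 10.6, 8.56 and 9.42 in treated libraries, the largest log2 fold change among the tested members (1.69 ± 0.18, edgeR adjusted p = 6.4e-05). Muscle markers Myh1, Ckm and Actn2 summed to 0.0305 to 0.171 FPKM in control and 0.0825 to 0.115 in treated libraries. Cox7a2, the widely expressed form, read 66.9, 71.7 and 71.9 FPKM in control and 74.3, 88.7 and 75.4 in treated libraries (log2 fold change 0.14, adjusted p = 0.226), and passed in 4 of 20 alternatives, among them with the GC correction, at 0.30. The ratio of Cox7a1 to Cox7a2 FPKM went from 4.64%, 3.81% and 3.92% in control to 14.3%, 9.66% and 12.5% in treated libraries, so Cox7a2 still led by a wide margin. Cox7a2l, a related protein that joins complexes III and IV in supercomplexes (chromosome 17, 83809347 to 83824759, minus strand), rose from 151, 147 and 150.3 FPKM to 249, 266 and 256 (log2 fold change 0.75 ± 0.07, edgeR adjusted p = 2.9e-05). Its treated and control values were far apart relative to their spread, and its ratio to Cox7a2 was 2.13 ± 0.111 in control and 3.25 ± 0.219 in treated libraries (SD, n = 3).

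The other tissue forms were low and did not rise at the threshold. Cox6a2, the heart and muscle form of subunit 6a, read 3.60, 1.83 and 2.42 FPKM in control and 1.49, 1.97 and 1.91 in treated libraries, an overlap (log2 fold change −0.56, adjusted p = 0.145). Its share against Cox6a1 was 0.531% ± 0.190 in control and 0.332% ± 0.0572 in treated libraries. Cox4i2, the lung form of subunit 4, held 14, 0 and 21 estimated counts in the controls and 12, 13 and 9 after treatment, at or near the floor of 12 estimated counts (3 fragments, counting error only), so no fold is given. Cox6b2, the testis form of subunit 6b, held 0, 0 and 12 estimated counts in the controls, 0 in every treated library, and was not tested. For Cox6b2 a difference was not detectable at this depth.

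**Figure D3:**
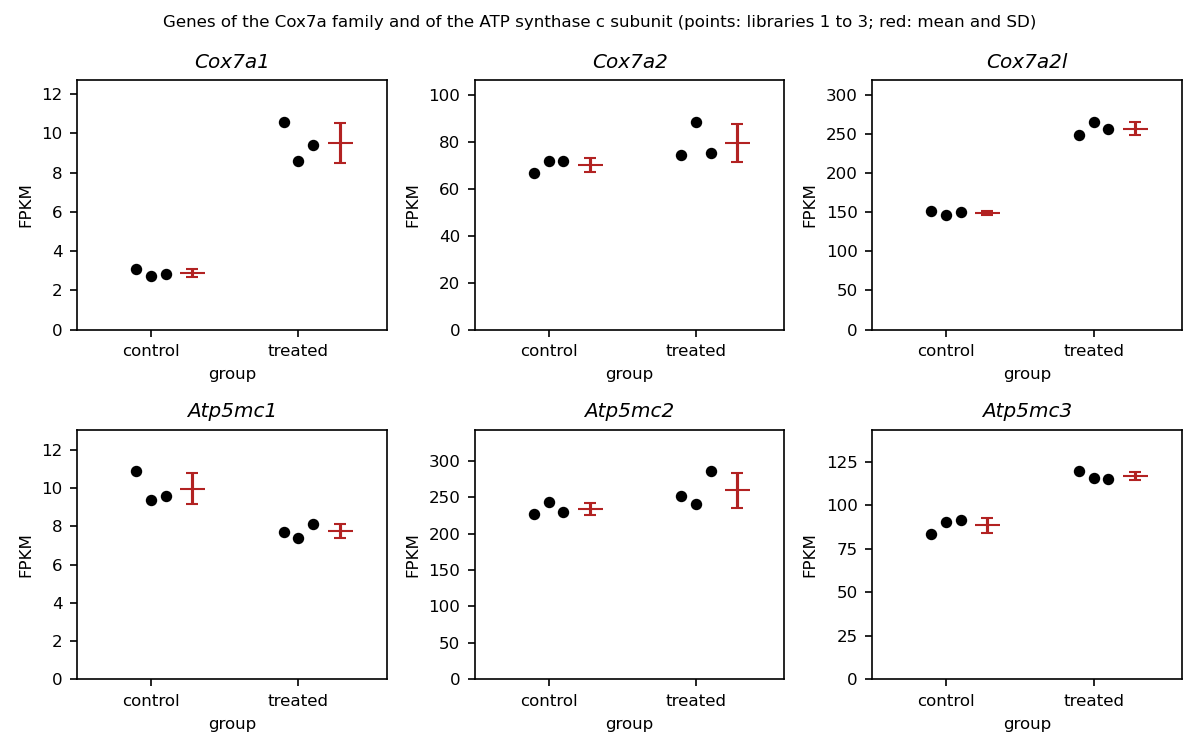
FPKM in each library (points) with the mean and SD (red, n = 3) for Cox7a1, Cox7a2 and Cox7a2l of complex IV and for the 3 genes of the ATP synthase c subunit, each on its own linear axis from 0. Cox7a1, Cox7a2l and Atp5mc3 are higher and Atp5mc1 is lower in treated cells without overlap. Cox7a2 is also higher without overlap but did not pass the test.

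In the ATP synthase, 7 of 18 genes rose (38.9%) and 5 fell (27.8%), against 23% and 23.5% of all rows tested. The median log2 fold change of the ATP synthase genes was 0.10. Its F1 head is a ring of alpha and beta subunits around a central stalk. Atp5f1b, the catalytic beta subunit and by FPKM the most abundant transcript of all 43 in control libraries, though under Cox6a1 in every treated library (chromosome 10, 127919142 to 127926260, plus strand), read 731, 757 and 759.9 FPKM in control and 463, 459.8 and 504 in treated libraries. Its log2 fold change was −0.69 ± 0.08 (edgeR adjusted p = 7.2e-05), the lowest among the tested members. Atp5f1a, the alpha subunit, fell from 356, 375 and 376 FPKM to 289, 299 and 299 (log2 fold change −0.36 ± 0.07, edgeR adjusted p = 0.0032). The central stalk genes did not follow them. Atp5f1c (gamma) averaged 159.8 ± 6.77 and 173 ± 5.14 FPKM and Atp5f1d (delta) 182 ± 6.61 and 169 ± 12 FPKM, with log2 fold changes of 0.08 and −0.14 that did not pass. Atp5f1e (epsilon, chromosome 2, 174302865 to 174305898, minus strand) rose from 20.6, 19.9 and 22.7 FPKM to 45, 39.5 and 45.6, with its log2 fold change at 1.0 ± 0.09 (edgeR adjusted p = 2.1e-05). Within the F1 head, the ratio of Atp5f1e to Atp5f1b FPKM went from 2.81% ± 0.179 to 9.12% ± 0.571 (SD, n = 3).

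The peripheral stalk, which holds the F1 head still against the turning ring, split 2 to 2. Atp5pf, coupling factor F6, read 13.5, 12 and 12.4 FPKM in control and 22.3, 24.2 and 21 in treated libraries (log2 fold change 0.80 ± 0.08, edgeR adjusted p = 3.5e-05). Atp5pb, subunit b, read 38.1, 26.7 and 31.7 FPKM in control and 47.0, 50.7 and 44.2 in treated libraries, higher in each treated library despite a wide control spread (log2 fold change 0.52 ± 0.11, edgeR adjusted p = 0.0030). Its row overlaps Wdr77 on the opposite strand, listed at 13.9 FPKM in control and 4.72 in treated libraries, and the split of reads between them is uncertain. Atp5pd, subunit d, fell from 91.3, 87.0 and 91.5 FPKM to 72.8, 71.2 and 72.7 (log2 fold change −0.35 ± 0.07, edgeR adjusted p = 0.0018). Atp5po, the oligomycin sensitivity protein at the top of the stalk, fell from 92.0 ± 1.5 to 79.2 ± 5.08 FPKM (log2 fold change −0.25 ± 0.08, edgeR adjusted p = 0.0272). The Atp5po call was lost in 10 of 20 alternatives, among them without control 1 or 2 or treated 1 or 2, at log2 fold changes of −0.27, −0.25, −0.26 and −0.21, and with the GC correction, at −0.062 (adjusted p = 0.354).

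The c subunit, whose copies form the rotating ring, is encoded by 3 genes with the same mature protein. Atp5mc2 held most of the summed c subunit FPKM and read 227, 243 and 230.1 FPKM in control and 252, 241 and 286 in treated libraries (log2 fold change 0.12, adjusted p = 0.358). Atp5mc3 rose from 83.5, 90.6 and 91.4 FPKM to 119.7, 116 and 115 (log2 fold change 0.36 ± 0.08, edgeR adjusted p = 0.0034), and Atp5mc1, the least abundant, fell from 10.9, 9.41 and 9.60 FPKM to 7.73, 7.39 and 8.15 (log2 fold change −0.40 ± 0.09, edgeR adjusted p = 0.0046). With the GC correction Atp5mc2 rose as well (0.28, edgeR adjusted p = 0.00215), and with the length correction Atp5mc3 did not pass (0.15, adjusted p = 0.175), while Atp5mc1 kept its call with both. As shares of summed c subunit FPKM, Atp5mc1 stood at 3.01% ± 0.336 in control and 2.02% ± 0.0265 in treated libraries, Atp5mc2 at 70.3% ± 0.738 and 67.5% ± 2.09, and Atp5mc3 at 26.7% ± 0.861 and 30.5% ± 2.06 (SD, n = 3).

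Of the other 5 membrane subunits, 2 rose (40%) and 0 fell, against 23% and 23.5% of all rows tested. Among these subunits 0 also fell at an unadjusted p under 0.05 in edgeR or in DESeq2, whereas limma called Atp5me lower. Atp5mj, the small subunit j, read 15.7, 12.5 and 12.8 FPKM in control and 22.5, 25.8 and 23.1 in treated libraries (log2 fold change 0.77 ± 0.11, edgeR adjusted p = 0.00041). Atp5mg, subunit g, which takes part in the dimers that shape the cristae, rose from 17.6 ± 0.534 to 21.8 ± 1.153 FPKM (log2 fold change 0.27, adjusted p = 0.0196). The Atp5mg call was lost without control 1 or 3 or treated 2, at log2 fold changes of 0.21, 0.26 and 0.25, and with the length correction, at −0.0075. Atp5me, Atp5mf and Atp5mk did not pass, with log2 fold changes of −0.26, 0.02 and 0.12. Atp5me passed with the length correction, at −0.59, and Atp5mk with the GC correction, at −0.35. Atp5if1, the inhibitor that stops the enzyme from running backwards when the membrane potential falls, read 43.0, 33.6 and 35.7 FPKM in control and 47.6, 51.6 and 52.3 in treated libraries. All treated values of Atp5if1 were above control, with their log2 fold change at 0.40 ± 0.10 (edgeR adjusted p = 0.0069), and the call was lost without control 3 (0.34, adjusted p = 0.0555) and with the length correction (0.12, adjusted p = 0.306).

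The transcript of cytochrome c itself fell. Cycs (chromosome 6, 50539543 to 50543518, minus strand) read 62.1, 51.3 and 55.3 FPKM in control and 35.0, 40.0 and 37.8 in treated libraries, without overlap, and its log2 fold change was −0.61 ± 0.09 (edgeR adjusted p = 0.00031). With the correction for GC content its log2 fold change was −1.21 (edgeR adjusted p = 3.9e-05), the largest shift of any lowered member. The row of Cyct, the testis cytochrome c gene, was not analysed here. Hccs, which attaches haem to cytochrome c, averaged 1.14 ± 0.267 FPKM in control and 1.43 ± 0.244 in treated libraries (adjusted p = 0.258).

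Summed over their genes, the complexes shifted against each other. Complex IV summed to 1930, 1946 and 1955 FPKM in control and 2179, 2101 and 2257 in treated libraries, complex III to 628, 593 and 623 and then 667, 693 and 723, and the ATP synthase to 2147, 2193 and 2209 and then 1900.1, 1887 and 2011. The complex IV sum includes the supercomplex gene Cox7a2l, which averaged 149 ± 2.28 FPKM in control and 257 ± 8.66 in treated libraries. Ratios without Cox7a2l were not computed. The ratio of complex IV to ATP synthase FPKM was 0.899, 0.888 and 0.885 in control and 1.147, 1.11 and 1.12 in treated libraries. That of complex III to ATP synthase was 0.293, 0.271 and 0.282 in control and 0.351, 0.367 and 0.359 in treated libraries. Neither ratio overlapped between groups, whereas complex IV over complex III averaged 3.16 ± 0.107 and 3.14 ± 0.119 (SD, n = 3), and overlapped. The shift rested mostly on the alpha and beta subunit genes: without Atp5f1a and Atp5f1b the ratios became 1.83 ± 0.00862 and 1.88 ± 0.0187 for complex IV, and 0.578 ± 0.0167 and 0.597 ± 0.0167 for complex III, which then overlapped. FPKM used a length close to the union of all exons annotated to a gene (1.05 times it at the median over the 43 genes), which makes genes with long retained-intron models look low. With the length of the principal transcript in its place, complex IV over ATP synthase was 0.647 ± 0.00362 in control and 0.783 ± 0.0108 in treated libraries, and complex III over ATP synthase 0.222 ± 0.00960 and 0.272 ± 0.00670. By calls, complex III had 4 raised and 3 lowered of 9 genes, complex IV 6 and 0 of 14, and the ATP synthase 7 and 5 of 18. A difference between the complexes in these counts was not tested, since genes of a complex are not replicates.

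**Figure D4:**
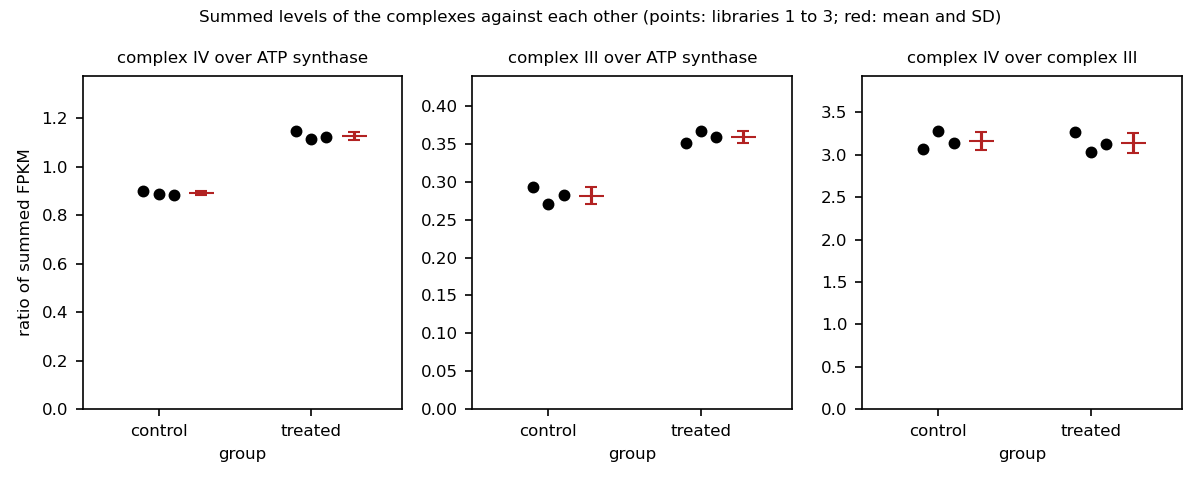
Ratios of summed FPKM between the complexes in each library (points), with the mean and SD (red, n = 3), on linear axes from 0. Complex IV and complex III stand higher against the ATP synthase in all treated libraries, and the ratio of complex IV to complex III overlaps.

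Across the genes, the change went with size: genes for the small subunits tended to be higher and those for the large ones lower. Of 25 tested genes with a coding length under 400 bases, 13 rose and 2 fell (median log2 fold change 0.31), and the exceptions were Uqcrq and Cycs. Of 17 genes with 400 bases or more, 4 rose and 7 fell (median −0.14), and the raised ones were Uqcrfs1, Cox5a, Atp5mc3 and Atp5pb. Spearman's correlation of log2 fold change with coding length was −0.49 over 42 genes, and −0.47, −0.61 and −0.50 over the 9, 14 and 18 genes of complex III, complex IV and the ATP synthase, as a description across genes that share libraries. Short genes were also raised more often in the table at large: of 731 tested rows under 400 coding bases, 35.3% rose and 15.2% fell (median log2 fold change 0.23), and of 12023 longer rows 23.0% and 28.2% did (median −0.02). Over 12754 rows the same correlation was −0.12.

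With a correction for transcript length in each library, 10 of the 42 genes rose and 14 fell, where 22.7% of rows rose and 24.5% fell. Of 25 genes under 400 coding bases 9 rose (36%) and 6 fell (24%), against 28.5% and 20% of rows of that length. Of 17 longer genes 1 rose (5.88%) and 8 fell (47.1%), against 23.7% and 27.9% of longer rows. Spearman's correlation of the corrected log2 fold change with coding length was −0.40 over the 42 genes. Complex III then had 2 raised and 3 lowered genes, complex IV 4 and 4, and the ATP synthase 4 and 6. The lowered complex IV genes were Cox4i1, Cox5b, Cox6b1 and Cox6a2, at log2 fold changes of −0.39, −0.33, −0.37 and −0.80. Cox7a1, Cox7c, Cox7b, Cox7a2l, Uqcrh, Uqcr10, Atp5f1e, Atp5pf, Atp5mj and Atp5pb still rose, at log2 fold changes of 0.51 to 1.37, and these were also the 10 raised genes whose call held in every alternative. The raised members that did not pass were Uqcrfs1, Uqcr11, Cox5a, Cox6c, Atp5mc3, Atp5mg and Atp5if1. All lowered members but Atp5po held their call in every alternative. With a correction for GC content 21 genes rose and 9 fell, where 24.7% of rows rose and 25.1% fell, with 9 raised and 0 lowered in complex IV. The part of length and GC content in the uncorrected changes was not tested beyond these values.

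**Figure D5:**
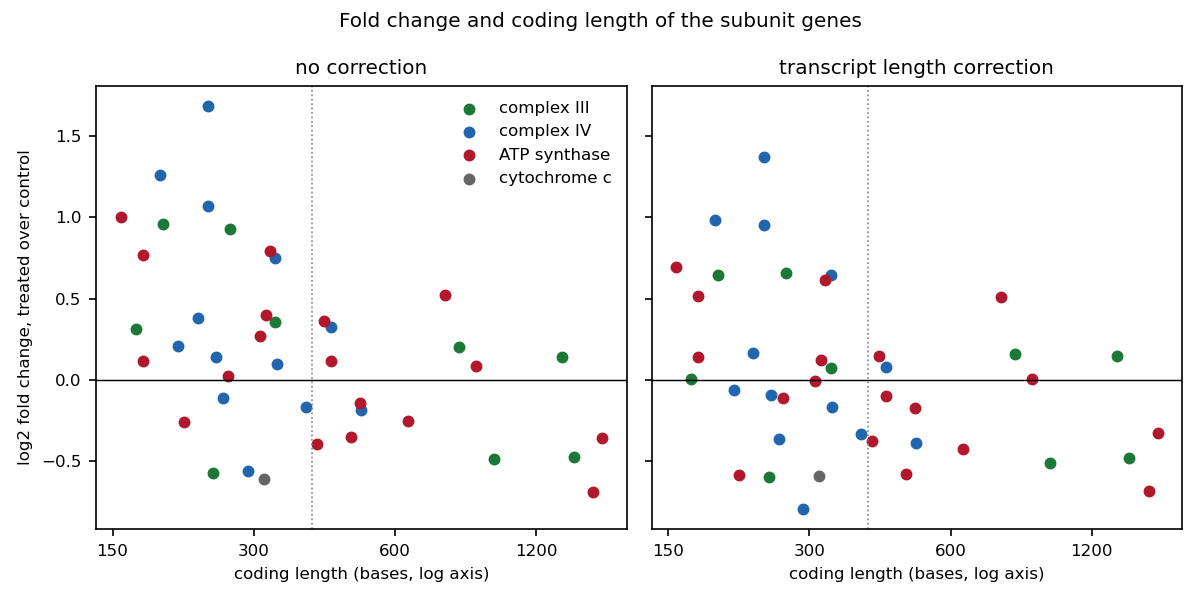
Log2 fold change (treated over control) against coding length in bases (log axis) for the genes of the plot of fold changes, coloured by complex, without correction (left) and with the transcript length correction (right). The dotted line marks 400 bases. The short genes reach higher in both panels, and the right panel lies lower for most of them.

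The assembly factors of the complexes, listed apart from the subunits, included raised and lowered genes, at shares near those of all rows tested (23% rose and 23.5% fell) for complexes III and IV. Of 9 complex III factors, 2 rose (22.2%) and 3 fell (33.3%). Bcs1l, the translocase that inserts the Rieske protein, fell from 18.3, 22.1 and 18.6 FPKM to 9.02, 8.67 and 9.43 (log2 fold change −1.16 ± 0.11, edgeR adjusted p = 3.3e-05). Lyrm7, the chaperone of the Rieske protein, was low at 0.695 ± 0.144 FPKM and fell to 0.287 ± 0.0710 (−1.28), and Uqcc1 fell as well (−0.46), while Uqcc2 rose by 0.47, a call lost with the length correction (0.18). Uqcc5 rose by 0.81, a call lost in 10 of 20 alternatives, among them without any of control 1 or 3 or treated 1, 2 or 3 (log2 fold changes of 0.56 to 0.88) and with the length correction (0.47). Ttc19, which clears fragments of the Rieske protein, did not pass (0.48, adjusted p = 0.0511), and passed with the length correction, at 0.50 (edgeR adjusted p = 0.0328).

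Of 27 tested complex IV factors, 7 rose (25.9%) and 9 fell (33.3%), or 4 and 7 with the replicate block and 4 and 11 with the length correction. Cox10, which makes the haem A precursor, fell from 6.33, 5.31 and 5.36 FPKM to 1.65, 2.03 and 1.67, the largest fall of the list (log2 fold change −1.70 ± 0.14, edgeR adjusted p = 1.4e-05). Coa3, which stabilises new Cox1 protein, and Lrpprc, which stabilises mitochondrial mRNA, fell by 0.61 and 0.88 on the log2 scale. Cox17, the copper chaperone that feeds the copper sites of the enzyme, rose from 3.03, 3.29 and 3.33 FPKM to 6.36, 5.63 and 5.70 (log2 fold change 0.83 ± 0.10, edgeR adjusted p = 9.0e-05). Cmc1 rose from 4.64, 3.92 and 5.31 FPKM to 11.2, 13.2 and 12.1 (log2 fold change 1.36 ± 0.15, edgeR adjusted p = 7.9e-05), and Cox14 rose by 0.39, a call lost with the length correction. Of 6 ATP synthase factors, 3 rose (50%) and 1 fell (16.7%), against 23% and 23.5% of all rows tested. Tmem70, Atpaf1 and Tmem242 rose by log2 fold changes of 0.63, 0.66 and 0.35, the last not passing with the length correction. Atpaf2, the chaperone of the alpha subunit, fell by 0.52. The rise of Atpaf1, the chaperone of the beta subunit, was lost without treated 1 (0.55, adjusted p = 0.0668).

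The mitochondrially encoded subunits of the same complexes had higher and more scattered levels. mt-Co1, the catalytic subunit of complex IV, read 4512, 3110.0 and 3374 FPKM in control and 6968, 11259 and 7387 in treated libraries (log2 fold change 1.19 ± 0.18, edgeR adjusted p = 0.00048). mt-Co2, which holds the entry copper site, read 709, 342 and 511 FPKM in control and 1017, 2141 and 1352 in treated libraries (log2 fold change 1.5 ± 0.28, edgeR adjusted p = 0.0018). mt-Atp6 rose by 1.0 ± 0.24 and mt-Cytb by 0.71 ± 0.25 on the log2 scale, and mt-Co3 and mt-Atp8 did not pass (−0.54 and 0.52). Treated 2 was the highest treated library for all 6, and it also had the largest share of mitochondrial chromosome counts. The mt-Cytb call was lost in 11 of 20 alternatives, among them DESeq2, limma and without control 2 or 3 or treated 2 or 3 (log2 fold changes of 0.57, 0.64, 0.32 and 0.78). Without control 2 or treated 2, mt-Co3 passed as lower (−0.72 and −0.87). With the GC correction 2 of the 6 rose and 2 fell: mt-Co1 stood at 0.47 and mt-Co2 at 0.69, mt-Co3 at −1.34 and mt-Atp8 at −0.86, and mt-Atp6 and mt-Cytb turned to −0.050 and −0.092.

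Among proteins that exchange with subunits or bind supercomplexes, Higd1a, a small protein of the inner membrane that binds complex IV, rose from 10.9, 10.3 and 11.9 FPKM to 33.1, 30.1 and 30.1 (log2 fold change 1.46 ± 0.08, edgeR adjusted p = 1.5e-06). Ndufa4, now counted as a complex IV subunit, rose from 47.5, 35.4 and 40.6 FPKM to 55.2, 58.4 and 54.1 (log2 fold change 0.41 ± 0.09, edgeR adjusted p = 0.0057). With the GC correction and with the length correction that call was lost (0.13 and 0.15). Its hypoxia-inducible relative Ndufa4l2, which can take its place, fell from 3.54, 3.86 and 3.63 FPKM to 1.58, 1.71 and 1.52 (log2 fold change −1.23 ± 0.18, edgeR adjusted p = 0.00044). Ucp2, an inner membrane carrier, fell by 0.79 on the log2 scale. Of the 8 genes of that list, 4 rose (50%) and 2 fell (25%), against 23% and 23.5% of all rows tested. With the GC correction 3 rose (37.5%) and 2 fell (25%), and with the length correction 2 rose and 2 fell (25% each).

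For comparison, 11 of 36 complex I subunit genes rose (30.6%) and 7 fell (19.4%), with a median log2 fold change of 0.06. Over all rows tested 23% rose and 23.5% fell. With the length correction 8 rose (22.2%) and 12 fell (33.3%), where 22.7% and 24.5% of rows did. The smallest p belonged to Ndufa2 (1.0), Ndufv3 (0.69) and Ndufa6 (0.63) among the raised and Ndufa13 (−0.59), Ndufc2 (−0.48) and Ndufv1 (−0.51) among the lowered. Of 4 complex II genes 0 rose, also at an unadjusted p under 0.05 in edgeR and in DESeq2 and limma, and 3 fell: Sdha, Sdhc and Sdhb, by 0.30, 0.28 and 0.29 on the log2 scale. With the GC correction 1 of the 4, Sdha, fell, and Sdhc and Sdhb stood at −0.22 (adjusted p = 0.0602) and −0.096 (adjusted p = 0.262). The Sdhc call was also lost without treated 1 (−0.28) and the Sdhb call without control 2 or 3 or treated 1 or 2 (−0.31 to −0.24), and the Sdha call with upper quartile scaling. Of 15 regulators of respiratory genes, 4 rose (26.7%) and 5 fell (33.3%), against 23% and 23.5% of all rows tested. With the GC correction 2 rose (13.3%) and 4 fell (26.7%), where 24.7% and 25.1% of rows did. With the replicate block 2 rose (13.3%) and 3 fell (20%), where 18.9% and 19.8% of rows did. Pprc1, a coactivator of the PGC-1 family, fell from 12.1, 12.8 and 12.9 FPKM to 4.05, 3.76 and 3.83 (log2 fold change −1.73 ± 0.08, edgeR adjusted p = 8.65e-07). Polrmt, the mitochondrial RNA polymerase, fell by 0.53, and Tfb1m, which methylates mitochondrial ribosomal RNA, by 0.69. Hif1a rose by 0.80, a call lost without treated 2 (0.56) and with the GC correction (0.22). Yy1 rose by 0.39, a call lost without control 2 or 3 or treated 1 or 2 (0.30 to 0.35). Ppargc1a, the gene of PGC-1alpha, was at 0.0341 ± 0.016 FPKM in control and 0.115 ± 0.0258 in treated libraries, and its call (log2 fold change 1.67) was lost without treated 1 or 2 (1.49 and 1.69) and with the GC correction (1.11).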

How the data were processed

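The 6 libraries, 3 control and 3 treated by their titles, measure RNA of CT26.WT cells. Oligo-dT selected mRNA was fragmented, copied with dUTP marking of the second strand and sequenced as read pairs, per the labels' protocols. Whether a group's libraries are separate cultures is not in the labels, and p-values thus reflect the spread of these samples alone, possibly technical. The table deposited by the authors holds, per the file headers, an estimated count and an FPKM for every gene in each library. The estimated counts were already whole, and a fragment weighs about 4 of them. The submitters' processing notes list HISAT2 2.2.1, StringTie 2.1.6, cutadapt 1.9, edgeR and DESeq2 with no roles. Build, annotation and use of the strand in counting are not given here, and coordinates follow the authors' file.

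The whole table was fitted with edgeR 4.0.16 (R 4.3.3; quasi-likelihood test, default filter on low counts, TMM, 2-sided), with Benjamini-Hochberg adjustment over 16212 of 25407 rows and a threshold of 0.05. SE is the absolute log2 fold change over the square root of F. Alternatives (20 settings) used DESeq2 1.42.0, limma 3.58.1 on log2(FPKM + 1) or log2(FPKM + 0.1) (mean FPKM at least 1), other scalings and filters, loess corrections for GC content or transcript length (span 0.4, GENCODE M21 transcripts for 97.2% of tested rows), a replicate block and each library left out. Summed levels without Atp5f1a and Atp5f1b, or with the principal transcript's length, were chosen after seeing the data. On simulated counts for treated against control (15760 genes), the test recovered 71% of genes changed by a log2 fold change of 1 and 99% of those changed by 2, and called 10 unchanged genes. In the simulation fitted with the length correction the numbers were 74%, 96% and 8. In the simulation fitted with the GC correction they were 67%, 96% and 11. These numbers describe each fit by itself and are not a comparison of the fits. Changes smaller than a log2 fold change of 1 were not simulated, so recovery of the smaller changes reported above was not tested.

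The members, gene lists and comparisons were chosen with earlier results of these data known. Every member past the filter may be named. Values in every library are given for up to 8 members of a complex with the smallest p, its most abundant member and its isoform pairs. Of other genes, the mitochondrially encoded subunits, Ndufa4, Ndufa4l2 and up to 3 raised and 3 lowered genes of each list with the smallest p are named. Other names were chosen after their values were seen.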

Additional observations from a re-analysis of the deposited data

How the results depend on the processing

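Counts of raised and lowered members stayed within 1.5 times their main value in most alternatives. DESeq2 and the fit with no filter raised the median log2 fold change of all rows by 0.10 and 0.13. With the length correction, 10 members rose and 14 fell, 2 complex III genes rose, 4 complex IV genes fell and 4 ATP synthase genes rose. Among rows averaging at least 5 FPKM, 11 of 18 ATP synthase genes rose. In that fit 2217 of 6168 rows tested rose and 2193 fell, against 3735 and 3813 of 16212 in the main fit. These counts are smaller, but the share of tested rows called was larger in both directions. With 1 library left out, 2 (without control 2 or 3) to 4 complex III genes rose and 0 to 2 complex IV genes fell (2 without treated 3). The difference in the ratio of complex IV to ATP synthase FPKM was 0.237, or 0.0487 without Atp5f1a and Atp5f1b and 0.137 with principal transcript lengths. That of complex III to ATP synthase was 0.0772, 0.0194 and 0.0493. The control means under these differences were unlike, at 0.891, 1.83 and 0.647 for complex IV and 0.282, 0.578 and 0.222 for complex III. The sizes of the differences can therefore not be set side by side.

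Log2 fold changes that turned sign belonged to genes whose call was absent or small, except some mitochondrially encoded ones, and the cause was not tested beyond the setting itself. With the GC correction they were −0.12 for Uqcrc2, −0.068 for Uqcrb, 0.022 for Cox6b1, −0.35 for Atp5mk, −0.86 for mt-Atp8, −0.050 for mt-Atp6 and −0.092 for mt-Cytb. With the replicate block and the GC correction together they were −0.12, −0.090, 0.018, −0.36, −0.86, −0.055 and −0.12 for the same genes. With the length correction they were −0.17 for Cox6a1, −0.10 for Cox7a2, −0.063 for Cox8a, −0.11 for Atp5mf, −0.10 for Atp5mc2 and −0.0075 for Atp5mg. Cox6b1 stood at 0.013 with a mean of at least 5 FPKM and at 0.012 with upper quartile scaling, Uqcrc2 at −0.041 without both libraries numbered 2, and Atp5mf between −0.038 (without control 1) and 0.045 (without treated 1), with −0.019 without treated 3.

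Same-numbered libraries did not deviate together (Pearson r of 0.04, −0.10 and 0.006 over genes), so the numbers are not treated as pairs. With the replicate block 15 members rose and 8 fell, and 3070 and 3205 rows did. Not every library correlated best with its own number. Depth limits Cox4i2 and Cox6b2, which lie at the counting floor.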
